A study of Rattus norvegicus with 46 samples.

Results

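This account describes 10 genes of interleukin-1 (IL-1) and interleukin-6 (IL-6) signalling in the injured rat rotator cuff: Il1b, Il1rn, Il1r1, Il1r2, Il1rap, Il6, Il6r, Il6st, Osmr and Socs3. They were chosen by symbol, out of 23747 symbols in the authors' deposited gene tables. Values per library could be given for 9 of the 10. Il1r1 could not be tied to its transcripts and is described from the authors' deposited tables alone. Poly(A) RNA was sequenced from the supraspinatus tendon and from the subacromial bursa, the thin sac that lies over this tendon, of rats (Rattus norvegicus). Tenotomy is the cutting of the tendon. The bursa was activated by tenotomy and taken at day 3 (6 libraries) or day 14 (6). Tendons were cut with the bursa removed or cut with the bursa left intact, and taken at day 3 (6 libraries of each kind) or day 14 (6 of each). Non-operated controls gave 5 bursa and 5 tendon libraries, so 46 libraries formed 8 groups. All operated groups share the tenotomy, so removal of the bursa was studied only on top of a cut tendon.

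IL-1 beta, made by Il1b, is an early cytokine of wounds, released mostly by myeloid cells. It binds the receptor encoded by Il1r1, which signals only once the accessory chain Il1rap has joined it. Il1rn encodes an antagonist that occupies this receptor without signalling, and Il1r2 a decoy receptor that binds IL-1 beta but lacks a signalling domain. IL-6 binds Il6r, and the pair recruits gp130, encoded by Il6st, which starts JAK and STAT signalling. Osmr joins gp130 to form a receptor for oncostatin M. Socs3 is a target of STAT3 that binds gp130 and damps the signal. In tendon, both cytokines are known for their part in early inflammation after injury and in matrix turnover.

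Estimated counts per library totalled 12.5 to 69.9 M in day 14 bursae and 12.4 to 22.5 M in the other 7 groups. Levels below are CPM, the count of a gene relative to the library total, after TMM scaling, a correction for the composition of each library. Changes are log2 fold changes with their standard error from edgeR's quasi-likelihood test, and a gene rose or fell where its Benjamini-Hochberg adjusted p over all features was under 0.05. A feature is a named gene or a transcript without a name. Libraries of a group are not stated to come from separate animals, so p-values measure the spread between libraries. The tendon list of 7 markers (Scx and Tnmd among them) summed to 61.7 to 2554 CPM in control bursae and to 3986 to 9401 CPM in control tendons. No listed marker that could be tied to a transcript was at 0 throughout a group. Listed markers that could not be tied to one were not examined. In bulk tissue, fewer cells of a type and less RNA per cell cannot be told apart. The summed level of 8 skeletal muscle markers was 2072 to 23471 CPM in the 24 cut tendons, below all 5 control tendons (37415 to 60233 CPM). Muscle level is therefore tied to injury in the tendon, and values with it as a covariate stand beside the tendon results.

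The upstream sequences of the cytokine genes and the antagonist are shown because these 3 genes had the highest fold changes in cut tendons at day 3. Promoter entries were found for 9 of the 10 genes in the RefSeq table (build GRCr8), the exception being Il1r2. The stretches are the 250 bases before the annotated start, given 5′ to 3′ on the gene's strand. Capitals mark matches, on either strand, to any of 5 motifs: GGGA, any 4 bases and CC (NF-kB-like), TTNNGNAAT (C/EBP-like), TGACGTCA (CRE), TGANTCA (AP-1) and TTCNNNGAA (STAT).
Il6, chr4:5894576-5894825, minus strand: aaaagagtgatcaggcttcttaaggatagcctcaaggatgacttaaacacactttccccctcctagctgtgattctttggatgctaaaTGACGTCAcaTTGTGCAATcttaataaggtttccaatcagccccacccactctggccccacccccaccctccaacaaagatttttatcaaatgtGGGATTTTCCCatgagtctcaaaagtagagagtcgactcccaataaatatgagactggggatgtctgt
Il1b, chr3:137036582-137036831, minus strand: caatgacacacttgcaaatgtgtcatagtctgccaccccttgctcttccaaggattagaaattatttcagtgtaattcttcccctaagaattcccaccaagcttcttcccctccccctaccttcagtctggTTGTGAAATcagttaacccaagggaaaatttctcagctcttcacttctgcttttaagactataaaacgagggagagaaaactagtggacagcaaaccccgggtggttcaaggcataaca
Il1rn, chr3:27520072-27520321, plus strand: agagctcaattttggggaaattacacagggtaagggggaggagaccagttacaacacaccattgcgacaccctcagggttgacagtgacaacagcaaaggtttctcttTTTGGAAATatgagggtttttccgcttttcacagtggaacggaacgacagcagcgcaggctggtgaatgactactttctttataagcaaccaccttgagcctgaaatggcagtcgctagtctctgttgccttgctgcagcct

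The C/EBP-like letters were found in all 3 of these windows and in 10.9% of all 33468 promoter windows of the same length. Il6 also held the CRE, present in 1.59% of windows, and an NF-kB-like stretch read on both strands with an overlap. The NF-kB-like letters stood in 16.4% of windows and, among the 9 genes, in Il6 and Il1rap. The AP-1 letters (6.34% of windows) occurred in Osmr. The STAT letters (7.67% of windows) occurred in none of the 9 windows, Socs3 included. A match is a run of letters and says nothing on binding.

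The first comparison asks how the bursa over a cut tendon differs from the bursa of rats without an operation. At day 3 the cytokines, the antagonist and the feedback gene were all higher. Of the 9 genes tested, 7 rose and 0 fell, where 46.1% of all 16303 features passed in either direction (22.1% up, 23.9% down). The median of the 9 log2 fold changes was 1.14, against -0.06 over all features. Il6 changed most, Il1rn and Socs3 followed, and 2 of the receptor chains rose by less than 1 on the log2 scale.

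Il1b had 2.78, 3.53 and 5.94 CPM as its lowest, median and highest level in day 3 bursae, against 0.614, 0.679, 0.799, 1.24 and 2.07 CPM in the 5 control bursae. Every day 3 library was above every control. The log2 fold change was 1.85 ± 0.34 (adjusted p = 0.00036). Il6 ranged from 1.36 CPM, with a median of 2.06, to 2.88 CPM at day 3. In control bursae it was at 0 in 3 libraries and at 0.215 and 0.211 CPM in bursae 4 and 5, 9 counts in all. The groups were apart, with a log2 fold change of 4.35 ± 0.75 (adjusted p = 0.00024). Without control bursa 5 that change was 4.96 (adjusted p = 0.00041).

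Il1rn, the antagonist, ran from 4.48 CPM, with a median of 7.69, to 14.7 CPM at day 3, against 0.614, 1.55, 1.20, 1.18 and 1.18 CPM in controls. It rose by 2.89 ± 0.69 (adjusted p = 0.0031), with no overlap between the groups. Il1r2, the decoy receptor, did not pass in either direction. Its day 3 libraries lay between 0.591 and 0.918 CPM, a narrow range inside that of the controls (0.097 to 2.63 CPM). Its log2 fold change was -0.99 ± 0.46 (adjusted p = 0.092). It passed without control bursa 2 (-1.26) and without control bursae 1 and 2 (-1.42), which had the lowest Il6st levels of the controls (140.6 and 132 CPM, against 238 to 277 CPM in the other three).

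Among the signalling chains, Osmr rose by 1.14 ± 0.21 (adjusted p = 0.00041). Its levels were 47.2, 66.2 and 103 CPM (lowest, median, highest) at day 3, against 23.7, 25.5, 36.5, 40.5 and 40.1 CPM in controls. All day 3 libraries again exceeded all controls. Il6r rose by 0.64 ± 0.16 (adjusted p = 0.0034), with 56.4 to 77.5 CPM at day 3 and 30.5 to 59.8 CPM in controls, ranges that overlapped. Without a scaling factor the change of Il6r was 0.70 and did not pass. Il1rap rose by 0.50 ± 0.18 (adjusted p = 0.035). The call of Il1rap was lost when any of 7 libraries was left out (control bursae 1, 2 and 3, day 3 bursae 1, 3, 4 and 6), with changes of 0.39 to 0.51 and adjusted p of 0.0502 to 0.0866. Without control bursae 1 and 2 it was 0.30. Il6st had 221 to 333 CPM at day 3 and 132 to 277 CPM in controls, with a change of 0.30 ± 0.19 (adjusted p = 0.22).

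Socs3 had 15.5, 23.6 and 30.2 CPM (lowest, median, highest) in day 3 bursae, against 4.56, 1.65, 5.70, 9.20 and 7.22 CPM in the control bursae. It rose by 2.07 ± 0.33 (adjusted p = 0.00013), and no library of one group reached the range of the other. Il1r1, the signalling receptor of IL-1, was higher at day 3 in the authors' deposited table by 1.47 ± 0.24 on the log2 scale (deposited adjusted p = 7.3e-09), where 43.8% of symbols passed. The deposited mean and fold change correspond to a mean of 1400 normalized counts at day 3 and 504 in controls.

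The wider pathway lists were chosen by known role. Of 23 other IL-1 side genes tested, 9 rose and 4 fell at day 3, where 22.1% of all features rose and 23.9% fell. The largest changes were in Il18 (2.69 ± 0.38), a cytokine of the IL-1 family, Nlrp3 (1.58 ± 0.28), the sensor of the inflammasome that leads to cleavage of IL-1 beta, and Nfkbiz (1.47 ± 0.27), a nuclear partner of NF-kB. Their adjusted p-values were 3.6e-05, 0.00031 and 0.00035. Of 19 other IL-6 side genes tested, 7 rose and 4 fell. Osm, the ligand of the Osmr and gp130 pair, rose by 2.54 ± 0.33 (adjusted p = 1.7e-05). Jak2, a kinase bound to gp130, rose by 1.89 ± 0.17 (adjusted p = 7.4e-07). Cntfr, the receptor of ciliary neurotrophic factor, fell by 1.67 on the log2 scale (SE 0.20, adjusted p = 7.4e-06). The median over the IL-6 side list was -0.06, equal to that of all features to 2 decimals.

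Markers of several cell types moved with these genes. The summed level of 10 monocyte and macrophage markers was 2932 to 4148 CPM in day 3 bursae and 396 to 1583 CPM in controls. The sum of 3 neutrophil markers (S100a8, S100a9 and Csf3r, of 7 listed) was 17.3 to 25.3 CPM at day 3 and 2.60 to 4.14 CPM in controls. The sum of 5 T and NK cell markers was 10.6 to 16.3 CPM at day 3 and 2.2 to 4.90 CPM in controls. Of 8 fibroblast markers 7 rose and 0 fell, with a sum of 38753 to 62922 CPM at day 3 and 1698 to 14242 CPM in controls. All 3 adipocyte markers tested fell, with a sum of 1478 to 3857 CPM at day 3 and 4883 to 12861 CPM in controls. The part of these cells in the changes was not tested.

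At day 14 fewer genes of the group, and fewer of all features, passed in the bursa than at day 3. Of the 9 genes, 3 rose and 0 fell against control, where 16.2% of all features passed (9.36% up, 6.82% down). Il1b had 2.49, 2.84 and 5.66 CPM (lowest, median, highest), above the control range that ends at 2.07 CPM, and rose by 1.59 ± 0.33 (adjusted p = 0.0052). Il6r rose by 0.57 ± 0.16 (adjusted p = 0.021), with 59.7 to 72.0 CPM at day 14 and 30.5 to 59.8 CPM in control. Without control bursae 1 and 2, the change of Il6r was 0.31 and did not pass. The other gene that rose was Il1rn, by 2.95 ± 0.69 (adjusted p = 0.0099), and 1 library weighed heavily in it.

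The Il1rn levels of the 6 day 14 bursae were 2.18, 2.72, 3.63, 3.66, 7.28 and 34.2 CPM, the last from bursa 1. All were above the control range (0.614 to 1.55 CPM). Without bursa 1 the log2 fold change over control was 1.76 (adjusted p = 0.0070). Bursa 1 had 3.57 CPM of Il1b and 0.233 CPM of Il6, below the highest library of the group for each (5.66 and 0.687 CPM, both from bursa 6). Against day 3, Il1rn differed by 0.05 ± 0.57 (adjusted p = 0.96), and without bursa 1 it was lower at day 14, at -1.13 on the log2 scale and passed the test.

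Il6, Osmr, Socs3, Il1r2, Il1rap (0.38) and Il6st (0.23) did not pass against control at day 14. Il6 had 0.0422 to 0.687 CPM, with a change of 1.41 ± 0.75 (adjusted p = 0.20). Osmr changed by 0.62 ± 0.21 (adjusted p = 0.051) and Il1r2 by 1.29 ± 0.45 (adjusted p = 0.063). Both passed in the authors' deposited table and with DESeq2 run on the same counts. Il1r2 also passed without control bursa 2 (1.01) or control bursa 4 (1.60). Osmr also passed without control bursa 4 (0.71) or 5 (0.70) or without day 14 bursa 5 (0.69). Socs3 changed by 0.78 ± 0.32 (adjusted p = 0.11) and passed without control bursa 4 (1.02). Il1r1 was still higher at day 14 than in control in the authors' deposited table, by 0.64 ± 0.20 (deposited adjusted p = 0.011), where 19.0% of symbols passed.

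Between the time points, Il1r2 parted from the rest of the group. Its day 14 bursae had 2.18, 3.31 and 6.37 CPM (lowest, median, highest), against 0.591, 0.729 and 0.918 CPM at day 3, with no overlap. It was higher at day 14 by 2.27 ± 0.45 (adjusted p = 0.0019). Il6 was lower at day 14, with a median of 0.203 CPM against 2.06 CPM at day 3 and a log2 fold change of -2.94 ± 0.60 (adjusted p = 0.0026). Without day 14 bursa 6, the highest for Il6, that value was -3.67. Socs3 was lower, at -1.29 ± 0.30 (adjusted p = 0.0064), with 5.61 to 12.6 CPM at day 14 and 15.5 to 30.2 CPM at day 3. Thus 1 of 9 genes rose and 2 fell, where 21.5% of all features passed (9.41% up, 12.1% down). Scaled to total counts Socs3 was at -1.28 and did not pass. Osmr was at -0.52 ± 0.20 (adjusted p = 0.071) and passed without day 14 bursa 6 (-0.65), without day 3 bursa 5 (-0.61), with DESeq2 and in the authors' deposited table. Il1b changed by -0.26 ± 0.30 (adjusted p = 0.58, 95% interval -0.89 to 0.37). In the authors' deposited table Il1r1 was lower at day 14, at -0.82 ± 0.13 (deposited adjusted p = 1.8e-08), where 34.3% of symbols passed. Of the wider lists, Osm (-1.34 ± 0.28, adjusted p = 0.0031), Jak2 (-1.11 ± 0.16, adjusted p = 0.00016) and Nfkbiz (-1.31 ± 0.25, adjusted p = 0.0014) were lower at day 14. Lifr, the receptor of leukaemia inhibitory factor, was higher by 1.07 ± 0.20 (adjusted p = 0.0013).

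At day 14 fewer genes of the wider lists passed against control than at day 3. The share of all features that passed also fell, to 16.2% from 46.1%. On the IL-1 side 7 of 23 rose and 0 fell, with Il18 at 1.93 ± 0.37, Il18rap, a chain of the IL-18 receptor, at 1.60 ± 0.25 and Nlrp3 at 1.37 ± 0.28. On the IL-6 side 5 of 19 rose and 2 fell, with Osm at 1.20 ± 0.32, Jak2 at 0.78 ± 0.17 and Cntfr at -1.09 ± 0.20. The myeloid sums were 1666 to 2990 CPM (10 monocyte and macrophage markers) and 4.55 to 14.0 CPM (3 neutrophil markers). The replicate numbers of bursae and their controls share only a number. In a fit of only these 2 groups, Il6r did not pass (0.57) and the calls of Il1b and Il1rn stood. With the number as a block added to that fit, none of the 3 passed, with Il1b at 1.48 and Il1rn at 1.94.

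**Figure D1:**
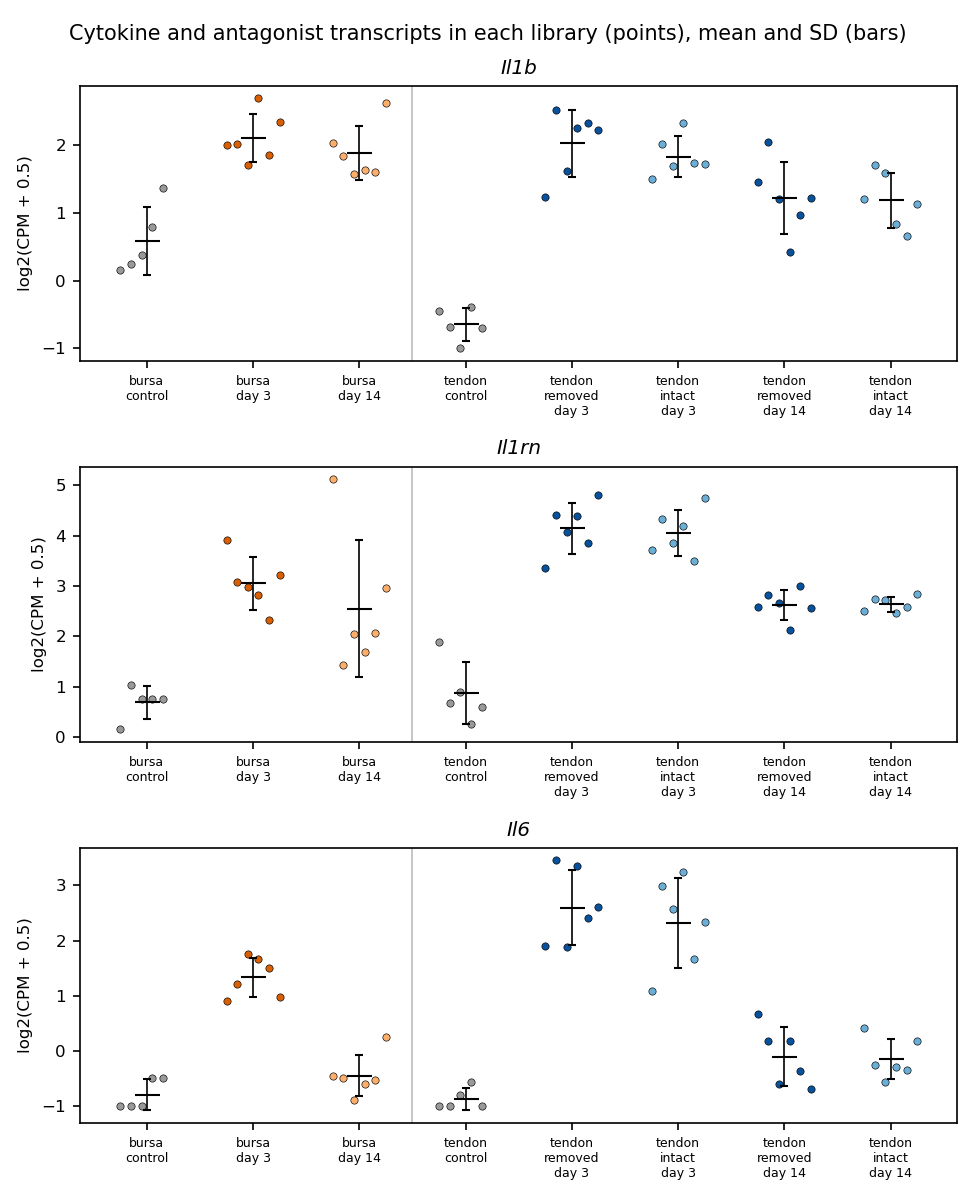
Levels of Il1b, Il1rn and Il6 as log2(CPM + 0.5) in each of 46 libraries, with points for libraries, horizontal bars for group means and whiskers for 1 SD. Each group of bursae stands left of the grey line and each group of tendons right of it. The highest Il1rn point among day 14 bursae is bursa 1 at 34.2 CPM.

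The second comparison asks how the cut tendon differs from the tendon of rats without an operation, with the bursa removed or intact. At day 3, 7 of the 9 genes rose and 1, Il6st, fell, both with the bursa removed and with it intact. The background was high: 62.7% of 16362 features passed with the bursa removed (30.7% up, 32.0% down) and 65.3% with it intact (32.4% up, 32.9% down). The median log2 fold change of the 9 genes was 1.14 with the bursa removed and 1.39 with it intact, against -0.02 and -0.01 over all features. The 2 comparisons share their control libraries.

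Il6 was nearly absent from control tendons, with 3 counts in all over 5 libraries, 3 of them at 0. At day 3 it had 3.17, 5.19 and 10.4 CPM (lowest, median, highest) with the bursa removed, against 0, 0, 0.0752, 0.174 and 0 CPM in controls. With the bursa intact the levels were 1.63, 4.98 and 8.94 CPM. Since a fold over so few counts is not firm, it is given as a ratio of summed counts with an exact 95% interval for counting error only. The ratio over control was 130 (44.4 to 634) with the bursa removed and 109 (37.1 to 530) with it intact. The adjusted p was 2.1e-08 and 3.5e-08. The fitted log2 fold change moved by more than 1 unit without control tendon 4, to 7.85 from 6.79 with the bursa removed and to 7.58 from 6.52 with it intact.

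Il1b had 1.85, 4.22 and 5.21 CPM (lowest, median, highest) at day 3 with the bursa removed and 2.32, 2.81 and 4.52 CPM with it intact. Control tendons had 0.229, 0.123, 0, 0.261 and 0.114 CPM, below every injured library. These came from 9 counts in all, so the size of a fold over them is not firm. The log2 fold change was 4.63 ± 0.46 (adjusted p = 2.2e-09) with the bursa removed and 4.36 ± 0.46 (adjusted p = 5.3e-09) with it intact. Il1rn reached 9.82, 18.5 and 27.7 CPM with the bursa removed and 10.8, 15.9 and 26.5 CPM with it intact, against 3.21, 1.11, 1.35, 0.697 and 1.02 CPM in controls. It rose by 3.58 ± 0.32 (adjusted p = 2.1e-10) and 3.47 ± 0.31 (adjusted p = 3.1e-10), and the groups did not overlap.

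Il1r2 showed no call in tendon. Its levels were 0.618 to 1.18 CPM with the bursa removed and 0.314 to 1.13 CPM with it intact at day 3, against 0.114 to 1.28 CPM in controls. The changes were 0.17 ± 0.40 (adjusted p = 0.73, 95% interval -0.64 to 0.99) and -0.24 ± 0.40 (adjusted p = 0.61, -1.06 to 0.57).

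The receptor chains did not move together. Il6r was 63.6 to 69.6 CPM with the bursa removed and 58.5 to 78.4 CPM with it intact, against 19.9 to 43.9 CPM in control tendons. It rose by 1.06 ± 0.13 (adjusted p = 7.3e-08) and 1.07 ± 0.13 (adjusted p = 5.1e-08), with the groups apart. Osmr had 48.7 to 83.3 CPM with the bursa removed and 47.3 to 87.9 CPM with it intact, against 23.7 to 39.4 CPM in controls, and rose by 1.05 ± 0.16 (adjusted p = 1.8e-06) and 1.04 ± 0.16 (adjusted p = 1.7e-06). Il1rap rose by 1.14 ± 0.19 (adjusted p = 9.7e-06) with the bursa removed and 1.39 ± 0.19 (adjusted p = 3.9e-07) with it intact. Its levels were 8.44 to 22.5 CPM with the bursa removed and 16.8 to 25.1 CPM with it intact, against 7.41 to 8.63 CPM in controls, so that only removed tendon 1 at 8.44 CPM reached the control range.

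Il6st, the shared signalling chain, went the other way. It had 151, 161 and 184 CPM (lowest, median, highest) with the bursa removed and 141, 146 and 178 CPM with it intact, against 174, 167, 296, 235 and 238 CPM in controls. It fell, at -0.47 ± 0.11 (adjusted p = 0.00034) and -0.56 ± 0.11 (adjusted p = 3.7e-05), although the ranges overlapped. Scaled to total counts alone it did not pass, at 0.02 with the bursa removed, where the sign turned, and -0.05 with it intact. Under that scaling the median of all features was 0.45 and 0.49, against -0.02 and -0.01 with TMM, and relative to this median Il6st was at -0.43 and -0.54. In a fit of only the 2 groups the call with the bursa removed stood (-0.47), and with the replicate number added as a block it was lost (-0.42). These numbers are not known to pair samples.

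Socs3 had 24.4, 28.6 and 38.0 CPM with the bursa removed and 24.1, 30.5 and 39.0 CPM with it intact (lowest, median, highest). Control tendons had 19.2, 8.36, 8.28, 9.59 and 6.02 CPM, with control tendon 1 the highest and still below every injured library. Socs3 rose by 1.5 ± 0.24 (adjusted p = 5.1e-06) and 1.55 ± 0.24 (adjusted p = 2.7e-06). In the authors' deposited tables Il1r1 was higher by 0.91 ± 0.16 with the bursa removed (deposited adjusted p = 1.2e-07) and by 0.77 ± 0.14 with it intact (2.2e-07), where 55.6% and 60.0% of symbols passed.

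With the level of 8 muscle markers as a covariate, 4 of the 8 calls at day 3 stood in both kinds of tendon, those of Il1b, Il1rn, Il6 and Il6r. In that fit 26.1% of all features passed with the bursa removed and 21.6% with it intact, in place of 62.7% and 65.3%. Il1b was then at 3.97 and 3.64, Il1rn at 2.45 and 2.22, Il6 at 5.79 and 5.41, and Il6r at 0.88 and 0.86 with the bursa removed and intact. The calls of Osmr (0.48 and 0.40), Socs3 (0.97 and 0.95), Il6st (-0.39 and -0.47) and Il1rap (-0.08 and 0.08) were lost, and Il1rap turned its sign with the bursa removed. Muscle level and injury cannot be told apart by this design.

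Marker sums of several cell types differed in cut tendons too. The 10 monocyte and macrophage markers summed to 2580 to 6402 CPM with the bursa removed and 4088 to 6963 CPM with it intact, against 736 to 2104 CPM in controls. The 3 neutrophil markers summed to 13 to 31.7 CPM and 15.4 to 32.6 CPM, against 0.553 to 1.36 CPM. The T and NK cell sum was 8.79 to 16.1 CPM with the bursa removed and 8.37 to 18.9 CPM with it intact, against 0.341 to 3.01 CPM in controls. The fibroblast sum was 25161 to 60976 CPM and 51325 to 77067 CPM, against 10154 to 21410 CPM, with 7 of 8 markers up and 1 down in each. The tendon cell sum was 1890 to 2498 CPM and 1739 to 3697 CPM, against 3986 to 9401 CPM. The part of these cells in the changes was not tested.

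On the wider IL-1 side, 11 of 23 genes rose and 7 fell with the bursa removed, and 11 rose and 5 fell with it intact. The shares over all features were 30.7% up and 32.0% down with the bursa removed, and 32.4% up and 32.9% down with it intact. Il18 rose by 2.74 ± 0.25 and 2.98 ± 0.25, Il18rap by 2.59 ± 0.30 and 2.66 ± 0.30, and Nlrp3 by 2.2 ± 0.24 and 2.25 ± 0.24. On the IL-6 side, 11 of 20 rose and 5 fell with the bursa removed, and 11 rose and 6 fell with it intact. Il11, a cytokine that signals through gp130, rose by 3.24 ± 0.52 and 3.90 ± 0.53, and Osm by 2.72 ± 0.45 and 3.13 ± 0.46. Lifr fell, at -2.43 ± 0.23 and -2.70 ± 0.24. The largest adjusted p among these 6 genes was 9.3e-06.

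At day 14, Il1b, Il1rn, Il1rap and Il6 were still above control and 0 genes were below, whether the bursa had been removed or left. The background was 65.1% with the bursa removed (33.2% up, 31.9% down) and 66.1% with it intact (33.8% up, 32.3% down). Il1b had 0.835, 1.81 and 3.61 CPM with the bursa removed and 1.07, 1.74 and 2.75 CPM with it intact, against at most 0.261 CPM in controls. It was higher by 3.69 ± 0.47 (adjusted p = 1.2e-07) and 3.61 ± 0.47 (adjusted p = 1.5e-07). Il1rn had 3.88 to 7.45 CPM with the bursa removed and 4.98 to 6.65 CPM with it intact, above all controls, and rose by 1.93 ± 0.31 in both (adjusted p = 5.4e-06 and 5.1e-06). Il1rap had 14.8 to 27.3 CPM and 18.0 to 29.4 CPM, and rose by 1.48 ± 0.19 (adjusted p = 1.8e-07) and 1.39 ± 0.19 (adjusted p = 4.0e-07).

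Il6 at day 14 was 0.117 to 1.09 CPM with the bursa removed and 0.173 to 0.827 CPM with it intact, ranges that touched that of controls. The ratio of summed counts over control was 9.90 (3.21 to 49.5, 95% counting interval) and 9.29 (3.00 to 46.6), with adjusted p of 0.0031 and 0.0045. Without control tendon 4, the fitted log2 fold changes were 4.19 and 4.05, in place of 3.13 and 3.00. In fits of only the 2 groups compared, Il6 had too few counts to be tested. With muscle level as a covariate Il1b passed in both (3.19 and 3.02), Il1rn (1.11) and Il1rap (0.58) passed with the bursa removed only, and Il6 (2.39 and 2.02) in neither.

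The remaining chains and Socs3 did not pass against control at day 14. Il6r changed by 0.06 ± 0.13 (95% interval -0.20 to 0.32) and 0.08 ± 0.13 (-0.18 to 0.34), Osmr by 0.28 ± 0.15 in both, and Socs3 by 0.35 ± 0.24 and 0.51 ± 0.24, with the bursa removed and intact. Without control tendon 1, Socs3 passed in both (0.68 and 0.84). Il6st passed in both without control tendon 1 (-0.30 and -0.27) or 2 (-0.31 and -0.29), and its change over all libraries was -0.21 ± 0.11 and -0.18 ± 0.11. With the bursa removed, Il6st also passed without removed tendon 4 (-0.27) and Osmr without control tendon 3 (0.36). With the bursa intact, Socs3 also passed without intact tendon 4 (0.62) and with DESeq2. Scaled to total counts, Osmr (0.58 and 0.62) and Socs3 (0.64 and 0.83) passed in both, and Il6r (0.38) with the bursa intact. Under that scaling the median of all features was 0.31 with the bursa removed and 0.36 with it intact. Il1r1 differed from control in the authors' deposited tables by 0.04 ± 0.12 (deposited adjusted p = 0.81) and 0.03 ± 0.13 (0.86), where 58.4% and 59.4% of symbols passed. On the wider lists, Il11 was at 3.23 ± 0.52 and 3.08 ± 0.52 and Il18rap at 2.46 ± 0.30 and 2.44 ± 0.30. Il33, an alarmin of the IL-1 family, was at -2.14 ± 0.20 and -2.09 ± 0.20. Of 23 IL-1 side genes 9 rose in each and 4 and 5 fell. Of 20 IL-6 side genes 11 and 10 rose and 5 fell in each. Over all features 33.2% and 33.8% rose, and 31.9% and 32.3% fell.

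**Figure D2:**
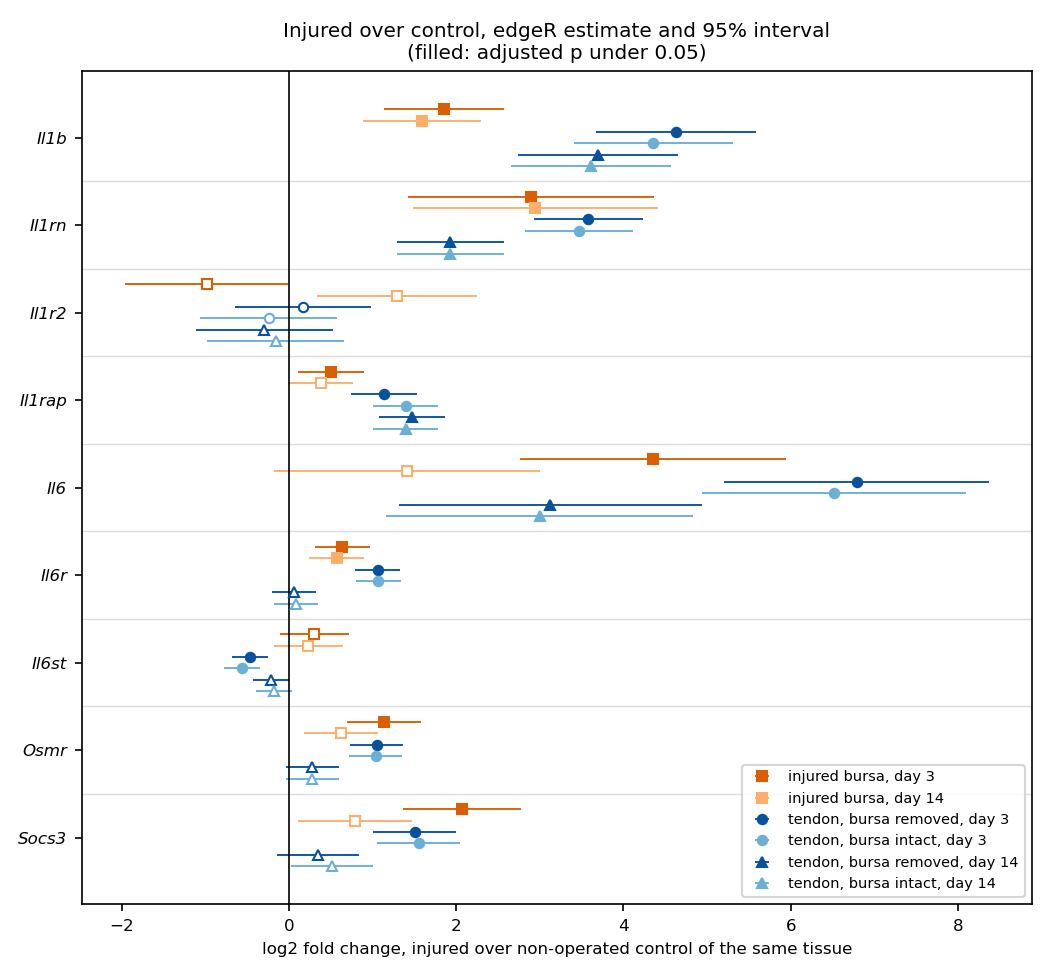
Log2 fold change of each gene in 6 injured groups over the non-operated control of the same tissue, as edgeR estimates with 95% intervals. Filled symbols passed at an adjusted p under 0.05. Il6 in day 3 tendons stands farthest to the right, and the Il6st symbols of day 3 tendons are the only filled ones left of 0.

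From day 3 to day 14 the tendon showed a fall in most of the group. With the bursa removed, 6 of 9 genes were lower at day 14 and 1 was higher, where 45.0% of features passed (22.4% up, 22.6% down). With it intact, 5 were lower and 1 was higher, where 43.0% passed (21.3% up, 21.7% down). Il6 was lower, at -3.66 ± 0.51 (adjusted p = 1.4e-06) with the bursa removed and -3.52 ± 0.51 (adjusted p = 2.9e-06) with it intact. Il1rn was lower, at -1.65 ± 0.25 (adjusted p = 5.4e-06) and -1.54 ± 0.25 (adjusted p = 1.5e-05). For both genes every day 14 library lay below every day 3 library of its kind.

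Il6r was lower, at -1.0 ± 0.12 (adjusted p = 1.7e-07) and -0.99 ± 0.12 (adjusted p = 2.2e-07), and its day 14 levels (30.6 to 36.0 CPM with the bursa removed, 29.9 to 38.4 CPM with it intact) were apart from those at day 3. Osmr was lower, at -0.77 ± 0.15 and -0.76 ± 0.15, and Socs3 by -1.16 ± 0.22 and -1.04 ± 0.22, with adjusted p of at most 0.00035 for these 4 values. In the authors' deposited tables Il1r1 was lower at day 14, at -0.85 ± 0.13 (8.5e-10) with the bursa removed and by -0.71 ± 0.13 (2.6e-07) with it intact, where 43.9% and 44.4% of symbols passed.

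Il1r2 and Il1rap passed in neither kind of tendon, and Il1b passed only with the bursa removed. Il1r2 was at -0.47 with the bursa removed and 0.09 with it intact. Il1rap was at 0.34 ± 0.17 (adjusted p = 0.11) with the bursa removed and 0.00 ± 0.17 (95% interval -0.35 to 0.35) with it intact. With the bursa removed it passed as a rise once removed tendon 4 of day 14 was left out (0.45) and with the muscle covariate (0.66). Il1b was lower, at -0.94 ± 0.32 (adjusted p = 0.017) with the bursa removed. That call was lost with the muscle covariate (-0.78) and in a fit of the 2 groups with the replicate number as a block (-0.98), though not in that fit without the block (-0.95). With the bursa intact Il1b was at -0.74 ± 0.32 (adjusted p = 0.060), and it passed without intact tendon 2 (-0.88) or 3 (-0.85) of day 14 and in the authors' deposited table. Whether the fall of Il1b differed between the 2 kinds of tendon was tested directly and did not pass (-0.19 ± 0.45, adjusted p = 1.0).

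Il6st was higher at day 14, by 0.26 ± 0.10 (adjusted p = 0.039) with the bursa removed and 0.38 ± 0.10 (adjusted p = 0.0032) with it intact. The first of these calls was lost without any of 6 libraries (removed tendons 3 and 4 of day 14 and removed tendons 2, 3, 4 and 6 of day 3), at adjusted p of 0.0560 to 0.0800. It was also lost with the muscle covariate (0.24). Scaled to total counts Il6st was at 0.07 and 0.21 and did not pass. Under that scaling the median of all features was -0.20 and -0.18, against -0.02 and -0.01 with TMM, so Il6st stood at 0.27 and 0.39 relative to it. Of the wider lists, Osm fell with the bursa removed (-1.62 ± 0.38) and intact (-2.47 ± 0.39), Il18 fell (-1.48 ± 0.21 and -1.83 ± 0.21), and Socs1, another inhibitor of JAK signalling, rose by 0.92 ± 0.23 in both.

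The third comparison asks whether taking out the bursa altered the response of the cut tendon. None of the 9 genes passed at day 3 or day 14 with edgeR, where 0% of 16362 features passed at either day. At an unadjusted edgeR p under 0.05 there were 1251 features at day 3 and 199 at day 14, and 0 of the 9 genes among them. DESeq2 on the same counts called 8 features at day 3 and 1 at day 14, none a member of the group. The authors' deposited tables called 82 symbols at day 3 (1.03%) and 2 at day 14 (0.0108%). None of the 10 genes was called at day 14. At day 3 Il1b, Il1r2 and Il6 have no deposited adjusted p, and the other 7 genes were not called. The lowest deposited adjusted p was 0.39, for Il1rap, whose deposited unadjusted DESeq2 p was 0.039 at a log2 fold change of -0.29.

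The intervals show which differences these 6 libraries a side leave possible in the fit of all tendon libraries, which did not pair same-numbered libraries. With the replicate number as a block, in fits of only the 2 groups, 0 members and 0% of features passed at either day. At day 3 Il6 had a median of 5.19 CPM with the bursa removed and 4.98 CPM with it intact, a difference of 0.27 on the log2 scale (95% interval -0.62 to 1.16). Il1b differed by 0.27 (-0.37 to 0.91), Il1rn by 0.11 (-0.38 to 0.61), Il1r2 by 0.41 (-0.35 to 1.18) and Il1rap by -0.26 (-0.61 to 0.09). The narrowest intervals were those of Il6st (0.09, -0.12 to 0.30) and Il6r (-0.01, -0.25 to 0.24). Osmr differed by 0.01 (-0.28 to 0.31) and Socs3 by -0.05 (-0.49 to 0.39).

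At day 14 Il6 differed by 0.13 (-0.99 to 1.25), Il1r2 by -0.14 (-0.91 to 0.63) and Il1b by 0.08 (-0.58 to 0.74). The median Il1b level was 1.81 CPM with the bursa removed and 1.74 CPM with it intact. Il1rn differed by 0.00 (-0.52 to 0.52), Il1rap by 0.08 (-0.27 to 0.43) and Socs3 by -0.16 (-0.62 to 0.29). Il6r (-0.02, -0.27 to 0.23), Il6st (-0.03, -0.24 to 0.17) and Osmr (0.00, -0.30 to 0.30) were bounded most closely. A miss of the threshold does not show equal levels. No gene of the wider lists passed at either day (0 of 23 and 0 of 20). Il1r1 in the authors' deposited tables differed by 0.15 ± 0.11 (deposited adjusted p = 0.64) at day 3 and 0.01 ± 0.08 (1.0) at day 14. The change of the removal effect between days passed for 0 of the 9 genes and 0% of features. At an unadjusted p under 0.05, 246 features stood out in that test.

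**Figure D3:**
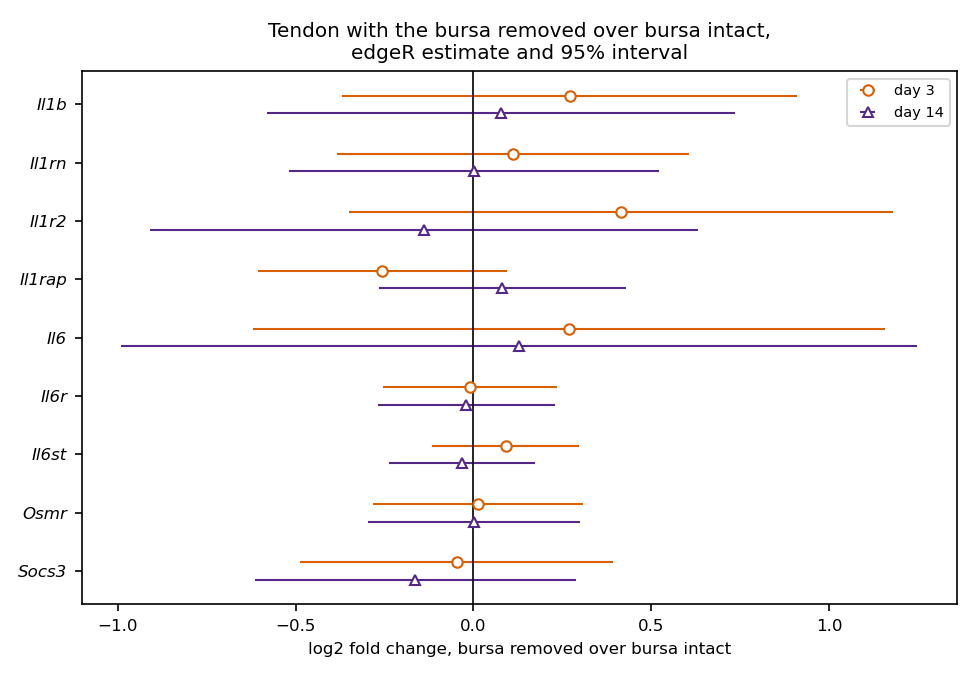
Log2 fold change of tendons with the bursa removed over tendons with it intact, at day 3 and day 14, as edgeR estimates with 95% intervals. Every interval crosses 0, and the widest is that of Il6 at day 14, from -0.99 to 1.25.

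The last comparison sets the bursa beside the tendon, in one fit of all 46 libraries. Muscle level was not a covariate in this fit. The skeletal muscle sum was 543 to 21182 CPM in control bursae and 37415 to 60233 CPM in control tendons, and its part in these differences was not tested. In controls, Il1b was higher in bursa by 2.89 ± 0.48 (adjusted p = 3.1e-06), the 5 bursae at 0.614 to 2.07 CPM and the 5 tendons at 0 to 0.261 CPM, with no overlap. Il6r was higher by 0.47 ± 0.15 (adjusted p = 0.0064) and Socs3 lower, at -0.84 ± 0.29 (adjusted p = 0.015), both with overlapping ranges. Thus 2 of 9 genes were higher and 1 was lower, where 51.1% of 17240 features passed (29.1% up, 22.0% down). The Il6r call was lost without control bursa 3 (0.34), and that of Socs3 without control bursa 2 (-0.62) or control tendon 1 (-0.49) or without control bursae 1 and 2 (-0.56). Il1r2 (0.91 ± 0.44, adjusted p = 0.080) passed without control bursa 2 (1.19), without control tendon 3 (1.1) and without control bursae 1 and 2 (1.30). In a fit of these 10 libraries alone, Il1b and Il6 had too few counts to be tested and none of the other 7 genes passed.

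At day 3 the injured bursa differed from the tendon with its bursa intact in 3 of 9 genes, 1 higher and 2 lower, where 34.7% of features passed (17.3% up, 17.4% down). Il6st was higher by 0.75 ± 0.14 (adjusted p = 5.6e-05), with 221 to 333 CPM in bursa and 141 to 178 CPM in tendon, and the ranges did not touch. Il1rap was lower, at -0.65 ± 0.17 (adjusted p = 0.0033). Il6 was lower, at -1.29 ± 0.49 (adjusted p = 0.037), and this call was lost without any of 7 of the 12 libraries (bursae 1, 2, 5 and 6 and tendons 2, 3 and 4), at adjusted p of 0.0519 to 0.111. Same-numbered bursae and intact tendons of day 3 correlated at 0.126 to 0.225 in their deviations from the group means, which cannot show that they pair. In a fit of only these 2 groups, 4 of the 9 genes passed without a block, Il1rn (-1.01, adjusted p = 0.012) in addition. With the number as a block in that fit, 5 passed, Il1rn (-1.04, adjusted p = 0.011) and Socs3 (-0.39, adjusted p = 0.049) in addition to the 3. In the fit of all 46 libraries Il1rn was at -1.01 ± 0.41 (adjusted p = 0.052), and it passed without bursa 1 (-1.26) or without intact tendon 1 (-1.09) or 5 (-1.11).

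At day 14 the bursa differed from the tendon with its bursa intact in 6 of 9 genes, 5 higher and 1 lower, where 52.9% of features passed (27.7% up, 25.2% down). Il1r2 was higher by 2.35 ± 0.40 (adjusted p = 3.9e-06), with 2.18 to 6.37 CPM in bursa and 0.433 to 1.07 CPM in tendon. Il6r was higher by 0.95 ± 0.13 (adjusted p = 1.1e-07), with 59.7 to 72.0 CPM in bursa and 29.9 to 38.4 CPM in tendon. For both genes every bursa exceeded every tendon. Il1rap was lower, at -0.72 ± 0.17 (adjusted p = 0.00056).

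The other three calls at day 14 turned on single libraries. Il1b (0.85 ± 0.32, adjusted p = 0.023) lost its call without bursa 6 (0.62) or without intact tendon 4 (0.75) or 5 (0.73). Osmr (0.41 ± 0.17, adjusted p = 0.037) lost it without any of 5 libraries (bursae 1 and 6 and tendons 3, 4 and 5), at changes of 0.29 to 0.40. Il6st (0.34 ± 0.14, adjusted p = 0.037) lost it without any of 8 (bursae 3, 4 and 5 and tendons 1, 2, 3, 5 and 6), at 0.28 to 0.34. Socs3 was at -0.58 ± 0.26 (adjusted p = 0.052) and passed without bursa 1 (-0.65) or 6 (-0.65), without tendon 4 (-0.71), and with DESeq2 (-0.60). T and NK cell markers, 5 in the sum, were 8.61 to 24.5 CPM in day 14 bursae and 2.53 to 5.97 CPM in intact tendons of that day. In day 3 bursae, where Il1r2 was low, that sum was 10.6 to 16.3 CPM. From day 3 to day 14, 4 of the 5 markers rose in bursa and 1 fell, with a median log2 fold change of 1.10. Over all features 9.41% rose and 12.1% fell. The part of these cells in the Il1r2 level was not tested.

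The difference between the injury responses of the 2 tissues was tested as an interaction, bursa over its control minus intact tendon over its control. At day 3, 3 of 9 genes passed, 1 up and 2 down, where 24.1% of features passed (9.76% up, 14.4% down). The response of Il1b was smaller in bursa, at -2.57 ± 0.58 (adjusted p = 0.00098). Il1b had 9 counts in all over the 5 control tendons, 1 of them at 0, so the size of this difference is not firm. Its levels were 2.78 to 5.94 CPM in day 3 bursae and 2.32 to 4.52 CPM in intact tendons, ranges that overlapped, unlike those of the controls. Il1rap responded less in bursa as well, at -0.95 ± 0.26 (adjusted p = 0.0072). With muscle level as a covariate in the fit of tendons alone, the Il1rap calls of intact tendons over control were lost at both days. The interaction was not run with that covariate. Il6st differed by 0.81 ± 0.21 (adjusted p = 0.0035), which was 0.39 and did not pass when scaled to total counts, or 0.76 relative to the median of all features there. Il6r was at -0.49 ± 0.20 (adjusted p = 0.065) and passed without control bursa 1 (-0.59) or 2 (-0.59), without both (-0.65), and without control tendon 1 (-0.55) or 2 (-0.64). At day 14, 2 of 9 passed, both down, where 34.6% of features passed (15.4% up, 19.2% down), Il1b at -2.04 ± 0.58 (adjusted p = 0.0056) and Il1rap at -1.02 ± 0.26 (adjusted p = 0.0026). Il1r2 was at 1.44 ± 0.59 (adjusted p = 0.052) and Il6r at 0.48 ± 0.20 (adjusted p = 0.057), and both passed with median-of-ratios size factors and with DESeq2. Il1r2 also passed without control bursa 4 or 5, day 14 bursa 1 or 2, control tendon 2 or 5, or intact tendon 2 (1.51 to 1.75), and Il6r without control bursa 3 or 4, control tendon 4 or 5, or intact tendon 2 (0.52 to 0.61).

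On the wider lists, Il11 was lower in bursa than in intact tendon at both days (-3.65 ± 0.48 at day 3, -3.35 ± 0.49 at day 14), and Lifr was higher (2.26 ± 0.23 and 2.78 ± 0.23). Il33 was higher in bursa by 1.11 ± 0.20 at day 3 and 1.54 ± 0.20 at day 14. In the interaction Il33 differed by 2.22 ± 0.29 and 2.65 ± 0.30, the response being positive in bursa at day 3 (0.85 ± 0.21, adjusted p = 0.0044) and negative in intact tendon (-1.43 ± 0.20, adjusted p = 4.1e-07). Lif, a gp130 cytokine, had a smaller response in bursa at day 3 (-1.84 ± 0.49, adjusted p = 0.0047) and day 14 (-1.81 ± 0.49, adjusted p = 0.0035).

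**Figure D4:**
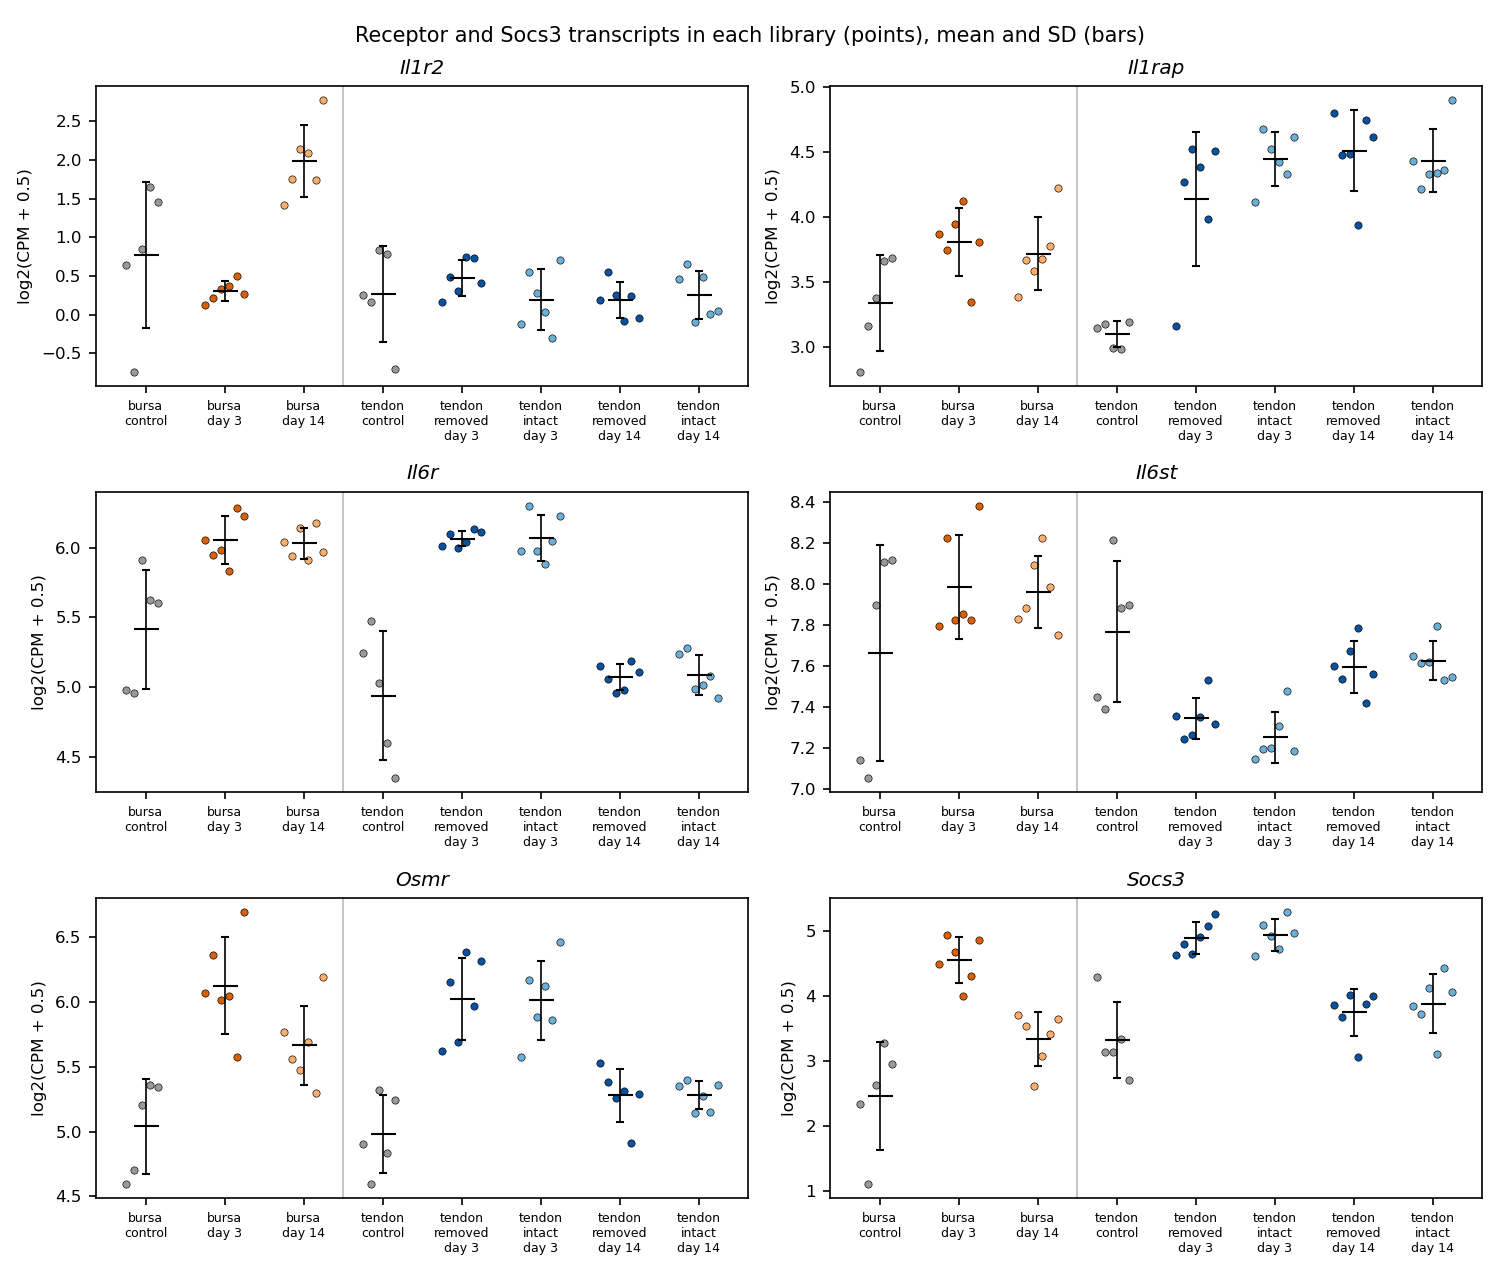
Levels of Il1r2, Il1rap, Il6r, Il6st, Osmr and Socs3 as log2(CPM + 0.5) in each of 46 libraries, with points for libraries, horizontal bars for group means and whiskers for 1 SD. The day 14 bursae hold the highest Il1r2 levels, with a lowest library at 2.18 CPM, and Il6r in day 14 bursae stays at 59.7 to 72.0 CPM while day 14 tendons lie at 29.9 to 38.4 CPM.

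Across the 8 groups, the order of medians for Il6 was day 3 tendon with the bursa removed (5.19 CPM) or intact (4.98), day 3 bursa (2.06), day 14 tendon with the bursa removed (0.450) or intact (0.327), day 14 bursa (0.203), and both controls at 0. Day 3 bursae overlapped intact tendons but lay below every removed tendon, and the day 14 groups overlapped one another. For Il1b the order was removed tendon (4.22) and bursa (3.53) at day 3, day 14 bursa (2.84), intact tendon at day 3 (2.81), removed (1.81) and intact (1.74) tendon at day 14, control bursa (0.799) and control tendon (0.123). Neighbours in this order overlapped, except the 2 controls. For Il1rn it was removed (18.5) and intact (15.9) tendon and bursa (7.69) at day 3, intact (5.79) and removed (5.64) tendon and bursa (3.65) at day 14, then control bursa (1.18) and control tendon (1.11), with overlap between neighbours other than day 14 bursa and control bursa. For Il1r2, day 14 bursa (3.31) was followed by control bursa (1.30), and the other 6 groups had medians of 0.618 to 0.864 CPM with overlapping ranges.

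The balance of antagonist to cytokine was described by the count of Il1rn over that of Il1b in each library, a ratio whose size also reflects transcript length and is read only between groups. Its median was 5.05 (range 3.08 to 6.67) in day 3 tendons with the bursa removed, 5.27 (3.81 to 9.48) in those with it intact, and 2.09 (1.10 to 4.19) in day 3 bursae. At day 14 it was 3.10 (1.81 to 5.09), 3.39 (2.24 to 5.13) and 1.36 (0.707 to 9.57) in the same 3 tissues. Control bursae had a median of 1 (0.571 to 2.29). The 4 control tendons with any Il1b count had a median of 9 (2.67 to 14), resting on 9 counts of Il1b. Bursa 1 of day 14 gave the 9.57.

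Genes whose levels followed each member most closely were found by Pearson's r of log2(CPM + 0.5) over the 46 libraries, among 11969 other named genes with a mean of at least 1 CPM. Libraries of a group share their treatment, so r is a description. Il1b was followed by Bcl2a1 (r = 0.91), Dbnl (0.91) and Tfec (0.91), and Il1rn by Hk3 (0.94), Glipr1 (0.94) and Scimp (0.93). Il6 was nearest to Npm1 (0.92), Ccl7 (0.91) and Hmgb2l1 (0.91), Il6r to Csf2ra (0.92), Arhgap4 (0.91) and Lyl1 (0.91), and Socs3 to Cyba (0.92), Tlr2 (0.91) and Sdf2l1 (0.90). Osmr was nearest to St3gal4 (0.92), Ptx3 (0.90) and Pirb (0.90), and Il1rap to Cap1 (0.95), Arcn1 (0.94) and Tmx1 (0.94). The weakest best matches were those of Il6st, with Tbc1d9b (0.88), Il34 (0.84) and Sarm1 (0.82), and of Il1r2, with Ccl5 (0.79), Gvin1 (0.75) and Klra2 (0.74). Among the members, Il1rn and Socs3 (0.79) and Il6 and Socs3 (0.79) were closest, while Il1r2 had r of -0.20 to 0.45 with the others.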

How the data were processed

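Poly(A) RNA of rat tendon and bursa was sequenced (46 libraries, 8 groups). Per the submitters' processing notes, reads came from bcl2fastq 2.19 and were quantified with kallisto 0.44.0. The deposited transcript table holds estimated counts, which were whole numbers and used as deposited. In the authors' deposited gene tables (DESeq2), the mean signal per gene is a scaled count, fold changes and their errors are log2 values, the test statistic is a score, and raw and adjusted p-values are listed. The deposited fold changes were printed with their sign turned, except in the 3 tables of day 14 and day 3, whose sign already ran as printed here. For the genome build, the annotation and the DESeq2 version, the sources used here name none.

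The transcript table carries no symbols. Names came from matching values: a gene took 1 or 2 transcripts whose scaled counts met its means in all 11 deposited tables (within 0.2% or 0.3 normalized counts, else 1%). This named 13048 of 23747 symbols, 15335 of 31715 transcripts and 89.5% of counts. Searches for means shifted by a separate factor of 0.85 to 1.15 in each table gave 4 names, 0.0307% of the number named. The tables share groups, so such shifted means can seldom be met by any transcript. This share therefore does not measure how often a gene took a wrong transcript of similar profile. Of the members, 8 were named by 1 transcript and Il1rap by 2, and Il1r1 was not matched. The tables share groups, so closeness to their fold changes is no separate test of names. The 1 row without a symbol in each deposited table was left out.

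Counts summed by symbol passed filterByExpr and TMM scaling before robust quasi-likelihood fits (edgeR 4.0.16, R 4.3.3) to 17 bursa libraries, 29 tendon libraries, or all 46 between tissues and for levels. Benjamini-Hochberg adjustment ran over every feature of a fit, with a threshold of 0.05. The script was tested on simulated data. DESeq2 1.42.0 was an alternative. Members and lists were chosen with earlier results of these data known, and wider-list genes named are the 3 with the largest change past the threshold in a comparison, shown for the comparisons that share them. No 2 libraries of a group agreed within sampling noise. The labels name no rat, so replicate numbers were used as a block only in alternative runs. Every same-numbered pair correlated above 0.1 in removed and intact tendons of day 14 (0.138 to 0.410) and in day 3 bursae and intact tendons (0.126 to 0.225). Day 3 and control bursae, from operated and non-operated rats, ranged from -0.327 to 0.222. The library that correlated best bore the same number in most pairs of removed and intact tendons, and of injured bursae and intact tendons, at both days. It also did so in most pairs of day 3 and control bursae, but not in those of control bursae and control tendons. Neither a correlation above 0.1 nor a best match by number therefore shows that samples pair, and pairing is not excluded.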

Additional observations from a re-analysis of the deposited data

Results flagged for a closer look

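Of 72 sets of libraries (9 genes in 8 groups), 3 held a library far from the rest of its group, and chance alone gives about 1 in 20. Tendon 4 of the day 14 group with the bursa removed was lowest for Il1rap, the accessory chain of the IL-1 receptor, at 14.8 CPM, with the next library at 21.8 CPM. The same library was lowest for Socs3 at 7.86 CPM, with the next at 12.3 CPM. Tendon 6 of the day 14 group with the bursa intact was highest for Il1rap at 29.4 CPM, with the next at 21.1 CPM.

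The injury response differed between bursa and intact tendon, by a test of the difference itself, for 3 genes at day 3: Il1b (-2.57 ± 0.58, adjusted p = 0.00098), Il1rap (-0.95 ± 0.26, adjusted p = 0.0072) and Il6st (0.81 ± 0.21, adjusted p = 0.0035). At day 14 it differed for Il1b (-2.04 ± 0.58, adjusted p = 0.0056) and Il1rap (-1.02 ± 0.26, adjusted p = 0.0026). These are edgeR values on the log2 scale, from a fit without muscle level as a covariate. Il1b in control tendons rests on 9 counts, so the size of its difference is not firm.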

How the results depend on the processing

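Of 67 called values over 17 comparisons, 39 stayed called with their sign under every alternative run. Over 1260 alternative values, 1176 stayed called, 82 missed the threshold and 2 turned their sign: Il6st in removed tendons at day 3 over control (0.018, scaled to total counts) and Il1rap in the same comparison (-0.079, muscle covariate). Of 1794 alternative values of uncalled results, 78 passed and 143 changed sign. The cause was not tested.

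Counts of called genes, of 9, that left 1.5 times the main count were as follows, with the share of all features that passed in brackets. Bursa at day 14 over control: 5 with DESeq2 (22.4%) and 5 in the authors' deposited table (19.0%), in place of 3 (16.2%). The fit of 2 groups with the replicate block gave 0 there (1.55%), and 2 without it (9.82%). Muscle covariate: 4 and 4 in removed and intact tendons at day 3 (26.1% and 21.6%), in place of 8 (62.7% and 65.3%). In intact tendons at day 14 it gave 1 (30.8%), in place of 4 (66.1%). Intact tendons at day 14 without a scaling factor: 7 (68.3%). Control bursa over control tendon: 0 in the fit of 2 groups with or without the replicate block (31.7% and 37.3%), in place of 3 (51.1%). Day 3 bursa over intact tendon: 5 in the fit of 2 groups with the block (40.1%) and 4 without it (40.5%), in place of 3 (34.7%). Interaction at day 14: 4 with median-of-ratios factors (34.4%) and with DESeq2 (36.7%), in place of 2 (34.6%).

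Leaving out 1 library gave 6 to 7 called genes for bursa at day 3 and 3 to 6 at day 14, over control, and 3 to 4 between days. Over all features these runs called 6610 to 7687, 1876 to 3507 and 2623 to 3671. Tendons gave 8 to 8 at day 3 and 4 to 6 at day 14 over control, 6 to 7 between days and 0 to 0 for removed against intact. Over all features the counts were 9784 to 10613, 10133 to 10677, 6527 to 7339 and 0 to 0. Bursa against tendon gave 2 to 4 in controls, 2 to 4 at day 3 and 3 to 6 at day 14, and the interactions 3 to 4, 2 to 4 and 0 to 0. Over all features bursa against tendon gave 8208 to 8944, 5197 to 6063 and 8679 to 8857. The interactions gave 3555 to 4786, 5462 to 6828 and 0 to 0 features.

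Calls over all features moved by over 1.5 times with total counts in bursa (3992, 516 and 1168, in place of 7513, 2638 and 3510), and with the muscle covariate in tendons over control (4272 and 3533 at day 3, 6169 and 5037 at day 14, in place of 10258, 10683, 10656 and 10815, removed first). Fits of only the 2 groups called 6174 features for bursa at day 3 over control, 1561 at day 14 and 5613 for control bursa over control tendon, and the same fits with the replicate block 3957, 247 and 4769 (7513, 2638 and 8810 in the larger fits). The interaction at day 3, in a fit of its 4 groups with the block, gave 2666, in place of 4161. The 2-group fit alone lost Il1rap (0.50) in bursa at day 3 and gained Il1b between days in intact tendons (-0.74) and Socs3 in day 14 bursa over tendon (-0.59). Adding the block also lost Il6r (0.64) in bursa at day 3 and Il6st between days in removed tendons (0.25), and gained Osmr between days in bursa (-0.51). Il6 in controls rests on 3 to 9 counts a group, which limits its fold, and Il1b in control tendons rests on 9 counts.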
